A study of Rattus norvegicus with 8 samples.

Results

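Among the genes measured in rat cardiac cells, 120 were lowest in myofibroblasts exposed to a weak direct current, below both the fibroblasts from which the myofibroblasts had been made and the untreated myofibroblasts. They were chosen by their variance stabilised (vst) expression values, which are on a log2 scale. A gene entered when its mean estimated count over the 8 libraries was at least 50, when the mean of the 4 treated libraries was at least 0.8 below the mean of the fibroblasts and at least 0.8 below the mean of the untreated myofibroblasts, and when each treated library was below each of the other 4. Of 21867 genes listed, 11949 had a mean count of at least 50, and the 120 members are 1.0% of these. The same rule turned over, for genes highest in the treated cells, found 109 genes.

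Cardiac fibroblasts keep up the connective tissue of the heart. After injury they turn into myofibroblasts, which contract and lay down collagen-rich matrix, and the scar that they leave stiffens the heart wall. Microcurrent treatment passes a small steady current through the culture medium between metal electrodes, and the study asked how it alters the expression profile of myofibroblasts.

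RNA was sequenced from 4 groups of 2 libraries. Cardiac fibroblasts (CF) were neonatal cells from Wistar Kyoto rats, kept in standard medium with 10% serum. Untreated myofibroblasts (MF) were made from CFs by repeated passaging in low-serum medium. The remaining groups were such myofibroblasts under direct current at 1 µA/cm2 (1 µA) or 2 µA/cm2 (2 µA) for 72 h, and the 2 groups together are called the treated cells. The labels place the treated cells in standard medium with 10% serum during the current and give no medium for the MF libraries over that time, so a change of serum and the current cannot be told apart in the differences between treated cells and MF. The samples of a group are labelled biological replicates, without saying whether they came from separate isolations of cells. Adjusted p-values therefore set a difference against the spread between these samples only. That spread was estimated over all 4 groups together, the treated libraries included.

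Libraries held from 26473085 to 37903701 estimated counts. Replicates differed by more than sampling noise in every group, by the least in MF, with a chi-square of 18.5 per gene, and by the most in CF, with 133. Genes carry only Ensembl IDs in these tables, and 0 of the 21867 IDs matched the gene table used here. Members are therefore described by their values, at most 4 of them by ID, and neither their functions, nor their promoters, nor the cell type markers of the cultures were analysed here.

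The choice of the members rested on the distances from the treated mean to the CF and MF means, so these are a description. The distance to CF ranged from 0.81 to 3.75 on the vst scale, with a median of 1.46. The distance to MF ranged from 0.80 to 3.06, with a median of 1.11. For 80 of the 120 members CF was farther away than MF. The smaller of the 2 distances reached 1 in 63 members, 1.5 in 13 and 2 in 3.

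The threshold cut through a continuous range. The 3 members nearest to it had a smaller distance of 0.80, 0.80 and 0.81, and the 3 nearest genes left out, which met every other condition, had 0.799, 0.798 and 0.796. A further 11 genes met the count and both distances but had a treated library at or above one of the CF or MF libraries. Without any condition on the distance, every treated library was below every other library in 976 genes, 8.17% of those with a mean count of at least 50.

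**Figure D1:**
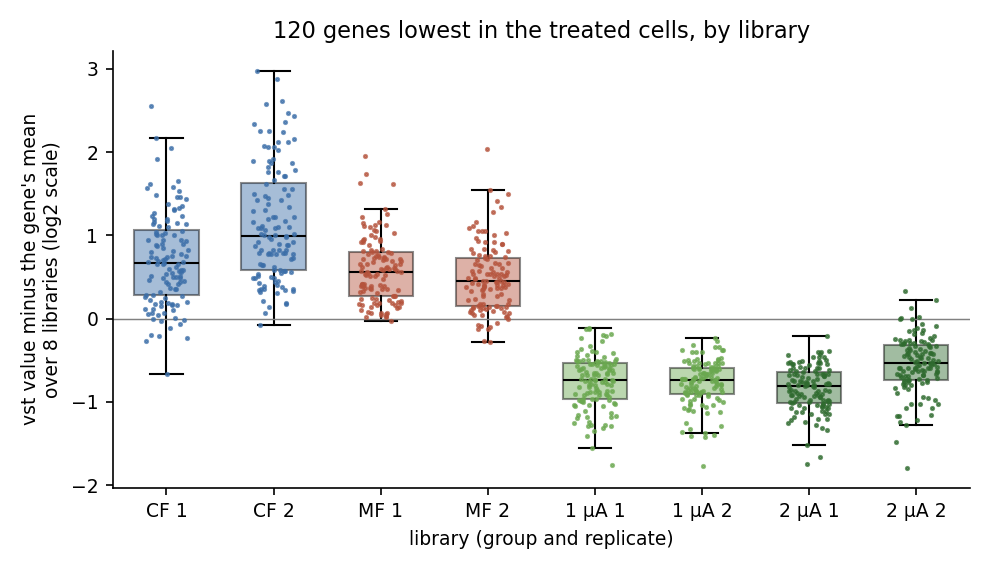
Each point is 1 of the 120 members, as its vst value (log2 scale) minus its own mean over the 8 libraries, and boxes give the median and quartiles. The 4 treated libraries lie below CF and MF, as the rule requires, and CF 2 lies above CF 1 and 2 µA 2 above 2 µA 1 for most members.

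The part of each library that the members took follows from the rule in its direction, and is given as a description of size. Summed over all 120, they made up 1.59% and 2.12% of the scaled counts in the CF libraries and 1.57% and 1.49% in the MF libraries. The 1 µA libraries gave 0.583% and 0.585%, and the 2 µA libraries 0.552% and 0.746%. The 5 most abundant members gave from 30.5% to 36.7% of the sum in each library. Without them the sum was 1.02% and 1.47% in CF, 1.04% and 0.991% in MF, and from 0.361% to 0.472% in the treated libraries. In such bulk samples, fewer cells that express a gene and less RNA of it per cell cannot be told apart.

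The members were near other genes in median abundance. Their mean estimated counts ran from 60.6 to 41862 with a median of 907, against a median of 856 over all genes with a mean of at least 50. The quartiles of the members were 294 and 3133, farther apart than the 336 and 2038 of those genes. A single value among the 960 of the members was 0, in 1 member. The log2 fold change of the treated cells in the count fit ranged from -3.67 to -0.82 against MF, with a median of -1.34, and from -6.69 to -0.89 against CF, with a median of -1.73. Both lowest values came from the member with the 0, at 0 to 0.128 CPM in the treated libraries (SE of 0.889 and 0.784). The rule fixes the sign of these differences and nearly their least size, so they describe the members only.

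The 2 genes with the largest value of the smaller distance on the vst scale are printed here. That scale draws low counts together, and by the smaller of the 2 log2 fold changes in the count fit, 2 members came before the first of these and 6, the first included, before the second. ENSRNOG00000004882 had, in CPM (reads scaled to library size by TMM), 1.34 and 2.11 at 1 µA and 1.35 and 2.82 at 2 µA. In MF it had 21.0 and 18.1 CPM and in CF 23.1 and 78.7 CPM. The treated libraries lay far below all others, while the CF libraries were far apart from each other. The mean was 1.91 ± 0.707 CPM (SD, n = 4) in the treated cells and 19.6 ± 2.11 CPM (SD, n = 2) in MF, a ratio of 10.3, and the ratio of CF to the treated cells was 26.7.

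ENSRNOG00000011946 was steadier within groups. It had 54.1 and 51.5 CPM at 1 µA, 65.1 and 59.0 CPM at 2 µA, 297 and 290 CPM in MF, and 297 and 383 CPM in CF. The treated mean of 57.4 ± 5.98 CPM (SD, n = 4) was 5.11-fold below the MF mean and 5.93-fold below the CF mean. CF and MF themselves did not pass the test for this gene, with a log2 fold change of -0.21 ± 0.139 (SE) for MF against CF (adjusted p = 0.316, edgeR).

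**Figure D2:**
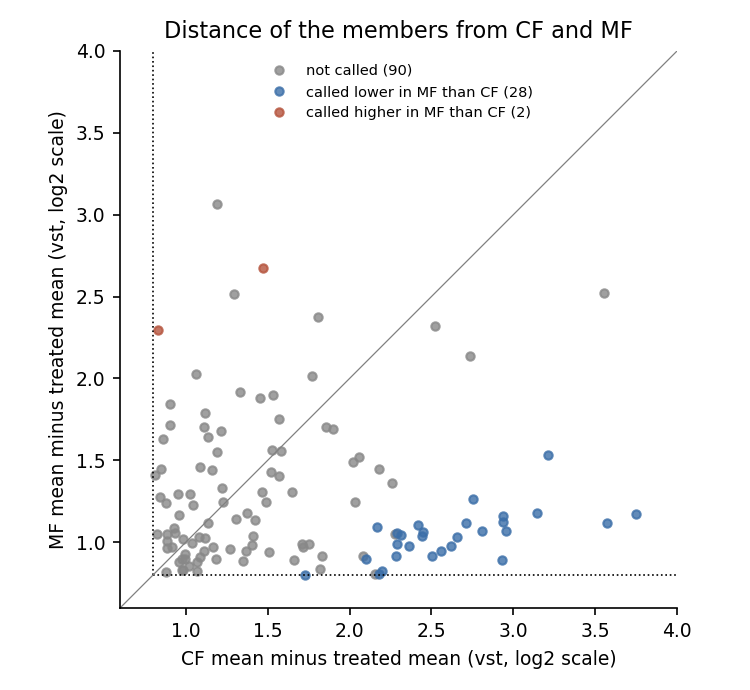
Each point is a member, placed by the CF mean minus the treated mean (x axis) and the MF mean minus the treated mean (y axis), both in vst units on a log2 scale. Dotted lines mark the threshold of 0.8, the grey line equal distances, and colours the call between MF and CF; the 28 members called lower in MF lie to the right of the grey line, with MF from 0.80 to 1.53 above the treated cells.

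The step from CF to MF was not itself a condition, but the rule read the CF and MF values of these same libraries. The shares of members called between them are therefore a description set beside the shares over all genes, from which nothing is drawn about the members. The quasi-likelihood test of edgeR was run on MF and CF over 13849 genes. A call needed both a p below 0.05 after Benjamini-Hochberg adjustment and at least a 2-fold difference, which is 1 on the log2 scale. Of the 120 members, 28 (23.3%) were called lower in MF than in CF, against 4.02% of all genes tested and 3.67% of genes with a mean count of at least 50. Only 2 members (1.67%) were called higher in MF, against 6.36% of all genes and 6.20% of the genes of that abundance. By the adjusted p alone, 30 members (25%) were lower and 4 (3.33%) higher in MF, against 8.71% and 9.78% of all genes.

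These counts rest on both MF libraries. Without MF replicate 1 or 2, 3 members were called lower in MF in either case, which is 2.5% of them, against 0.347% and 0.410% of all genes. Without CF replicate 2, 10 members (8.33%) were called higher in MF, near the 9.40% of all genes. In that fit 25 members (20.8%) were called lower, against 4.78%.

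For the 28 members called lower in MF, the call and the rule together set the order CF, MF and treated cells, and the levels show its size. Their median level was 29.5 and 46.4 CPM in the CF libraries, 10.5 and 10.3 CPM in MF, and from 3.93 to 5.16 CPM in the 4 treated libraries. Both CF libraries lay above both MF libraries in each of the 28. The log2 fold change of MF against CF ranged from -3.03 to -1.15, with a median of -1.70 and a median SE of 0.314. The -3.03 (SE of 0.779) was that of the member with a value of 0 in a treated library. Their median difference was -1.26 for the treated cells against MF and -3.10 against CF, both of which the rule drew on.

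A further 90 members were called in neither direction, which does not show that CF and MF were alike in them. Both CF libraries were above both MF libraries in 20 of these 90, against 33.1% of genes with a mean count of at least 50. The reverse held in 25 of the 90, against 32.3%. Both shares cover called and uncalled genes alike. Of the 90, 4 passed the adjusted p at less than a 2-fold difference, and no such share was counted over all genes. The median level of the 90 was 52.3 and 72.5 CPM in CF, 58.1 and 53.2 CPM in MF, and from 19.5 to 26.4 CPM in the treated libraries. Between MF and CF their median log2 fold change was -0.10, with a median SE of 0.276 and a range from -1.53 to 1.67. In 7 of them it was at least 1 in size without passing the test, which was not counted over all genes either. The median difference of the treated cells in this group was -1.39 from MF and -1.504 from CF, which the rule drew on.

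**Figure D3:**
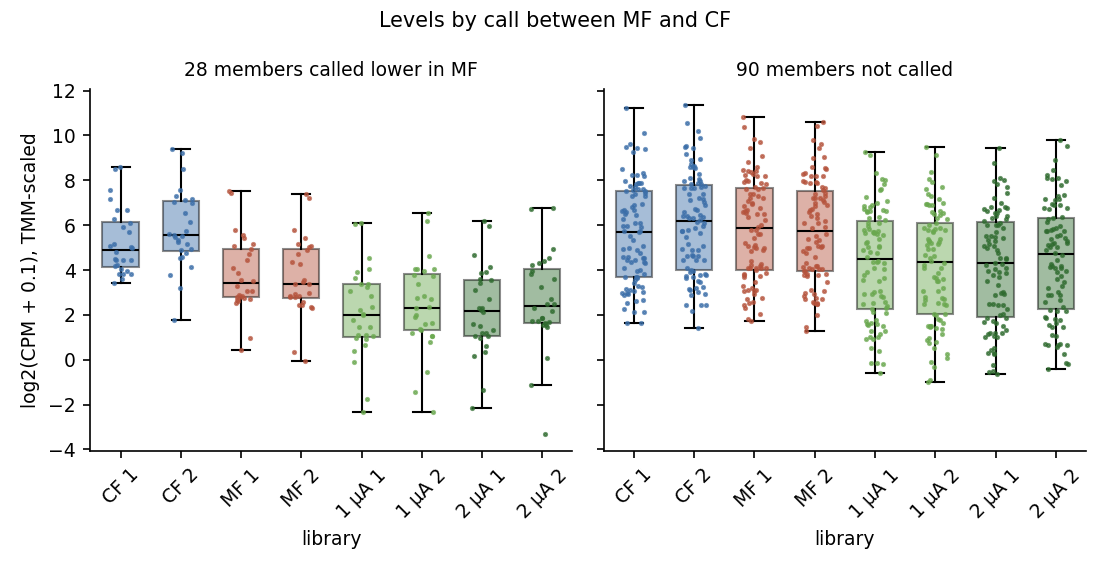
Points are members, boxes the median and quartiles, as log2(CPM + 0.1) in each library, for the 28 members called lower in MF than in CF (left) and the 90 called in neither direction (right). The rule sets the treated cells lowest in both panels, and the call sets CF above MF on the left only. The plot shows the size of the steps, with median levels of 10.5 and 10.3 CPM in MF on the left and 58.1 and 53.2 CPM on the right.

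The 2 members called higher in MF were chosen for printing after their values were seen. ENSRNOG00000014686 had 50.6 and 41.7 CPM in CF, 135 and 119 CPM in MF, 25.4 and 21.2 CPM at 1 µA, and 21.1 and 31.4 CPM at 2 µA. Its MF libraries stood above all others and its treated libraries below both CF libraries. MF exceeded CF by a log2 fold change of 1.46 ± 0.209 (SE, adjusted p = 0.00700, edgeR), and the call was lost without MF replicate 1 (log2 fold change of 1.37, adjusted p = 0.0612).

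ENSRNOG00000002381 had 23.7 and 42.0 CPM in CF, 78.4 and 69.6 CPM in MF, 13.7 and 7.93 CPM at 1 µA, and 9.15 and 9.49 CPM at 2 µA. Here too the groups did not overlap, in the order MF, CF and treated. MF exceeded CF by a log2 fold change of 1.17 ± 0.321 (SE, adjusted p = 0.0477, edgeR), just past the threshold. The call was lost with the log2 fold change at 1.17 under the replicate block (adjusted p = 0.0760) and at 1.19 with only CF and MF in the fit (adjusted p = 0.0596), and without CF replicate 1 the log2 fold change was 0.83 (adjusted p = 0.142). Without MF replicate 1 or 2 the log2 fold change was 1.09 and 1.26 (adjusted p = 0.207 and 0.149), and without 2 µA replicate 1 or 2 it was 1.17 in both cases (adjusted p = 0.0673 and 0.0678). These 2 members were 5.14-fold and 7.35-fold higher in MF than in the treated cells.

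**Figure D4:**
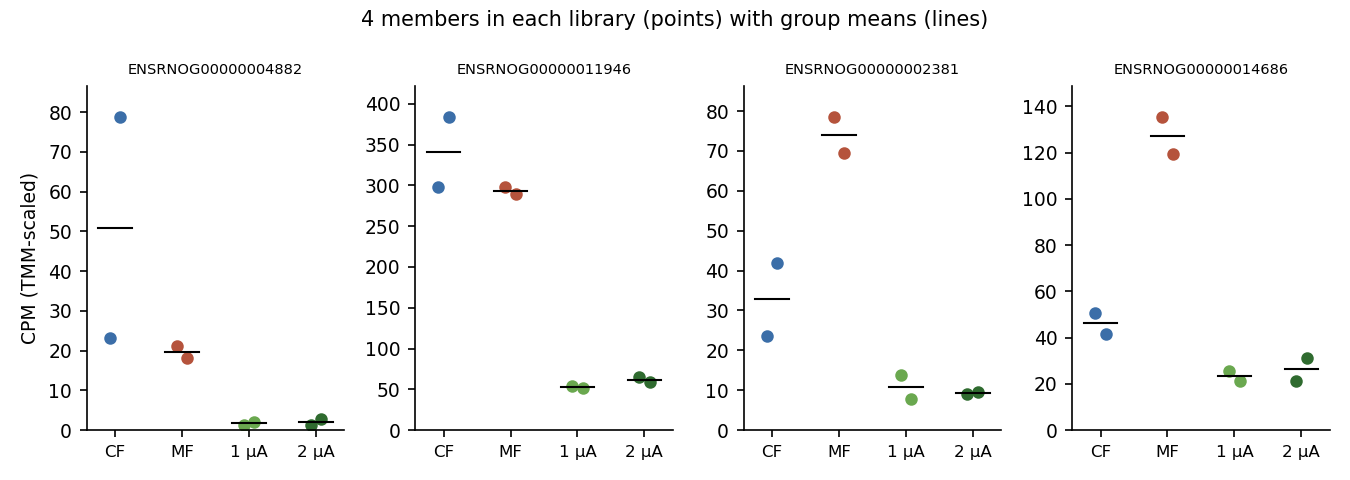
CPM of 4 members in each library (points, with the group mean as a line; the y axis starts at 0 and differs between panels). All 4 treated libraries lie below CF and MF in each panel, and the panels differ in whether CF or MF is the higher and in the spread of the CF libraries.

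The same step was also counted by libraries that did not overlap, again on values that the rule read. Both CF libraries were above both MF libraries in 48 members (40.0%), against 33.1% of genes with a mean count of at least 50. Both MF libraries were above both CF libraries in 27 members (22.5%), against 32.3%, and the groups overlapped in 45.

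The current densities were compared next. The rule treated the 4 treated libraries alike, but it required each of them to lie below every CF and MF library. Genes lowered at only 1 density were thus left out, which limits how far the densities can differ in the members. The counts are therefore a description, and nothing is drawn from them about the effect of current density. Between 2 µA and 1 µA, 0 of the 120 members were called by edgeR, against 0.00722% of all genes (1 gene, not a member), and 0 members had an unadjusted p below 0.05, against 0.520% of all genes. DESeq2 called 0 members as well. The log2 fold change of 2 µA against 1 µA ranged from -0.78 to 0.76 over the members, with a median of 0.12 and a median SE of 0.300. It was within 0.5 of 0 in 110 members, and the estimate was higher at 2 µA in 89. Neither count was made over all genes, but the median over genes with a mean count of at least 50 was 0.0032. The 2 µA libraries stood apart in the members. Replicate 2 lay at a median of 0.19 from the mean of the 4 treated libraries (vst), and replicate 1 at -0.11. At this precision a difference of the size of the SE in a single member was not detectable.

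The rule required the 4 treated libraries to lie below MF and CF, so the distances of each density are a description. The median distance to MF was 1.19 for 1 µA and 1.06 for 2 µA, and the median distance to CF was 1.48 and 1.40. With 1 µA alone 114 members, and with 2 µA alone 109 members, were at least 0.8 below both groups. Both 2 µA libraries were above both 1 µA libraries in 14 members (11.7%), against 9.50% of genes of that abundance, and the reverse held in 8 (6.67%), against 8.91%.

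Of the 4 treated libraries, 1 was the highest in most members, though not in all. Relative to the mean of the 4, the median member lay at 0.19 in 2 µA replicate 2, against -0.11 in 2 µA replicate 1 and -0.044 and -0.035 in the 1 µA libraries, while the medians over all genes of that abundance were from -0.0044 to 0.0045. The library 2 µA replicate 2 was the highest of the 4 in 75 members (62.5%) and in 32.8% of all genes of that abundance. Without it the medians of the other 3 libraries were from -0.040 to 0.047. Its median difference from the MF mean was -0.93, against -1.30 in the other 2 µA library.

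**Figure D5:**
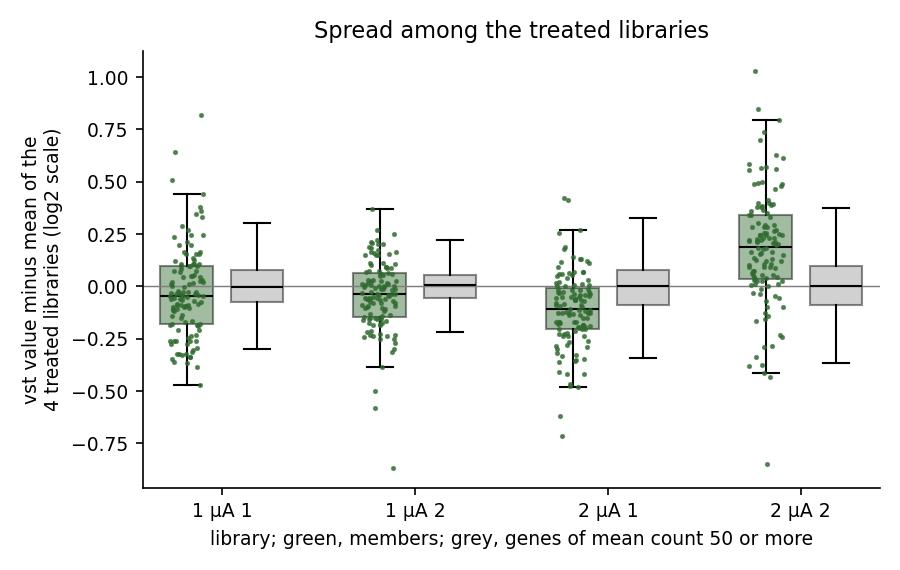
For each treated library, the vst value minus the mean of the 4 treated libraries (log2 scale), over the 120 members (green, with points) and over the 11949 genes with a mean count of at least 50 (grey); boxes give the median and quartiles. The members lie at a median of 0.19 in 2 µA replicate 2 and below 0 in the other 3, while all genes are centred near 0.

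The members also varied between the CF libraries. CF replicate 2 was above CF replicate 1 in 96 members (80.0%), with a median difference of 0.49, against 51.5% and 0.011 for genes of that abundance. Of the 28 members called lower in MF it was the higher in 24. The MF libraries differed little, with a median absolute difference of 0.10 in the members and 0.10 in all genes of that abundance. The median biological coefficient of variation from edgeR, which is the spread within groups, was 21.8% for the members and 13.6% for those genes.

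The members could be looked up in a further table of the same libraries, a matrix of whole-number counts whose pipeline is not given in the sources used here. It listed 108 of them. Every treated library was below every other library there in 105, and 104 met both the distances and the separation on the log2 CPM scale. The median distance was 1.30 to MF and 1.58 to CF. For the same genes the distance to MF differed between the tables by a median of 0.021 and by at most 0.46. The reads are the same in both tables, so this sets one count table beside the other and adds no replicate. Gene-specific length factors in the authors' normalization differed by more than 0.1 (log2) between the treated and the other libraries in 3 members, with a range from -0.12 to 0.27.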

How the data were processed

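The 8 RNA-seq libraries were from CF, MF, 1 µA and 2 µA cells of the rat (n = 2 each). Estimated counts were made by the authors with salmon (rat transcriptome, build rn6), then summed per gene with tximeta. From these the authors made normalized values (a signal: counts over DESeq2 factors that differ between genes) and vst values on a log2 scale. The pipeline of the deposited matrix of whole-number counts is not given in the sources used here, though the labels describe fastp and STAR.

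Estimated counts were rounded and tested with edgeR 4.0.16 (R 4.3.3): filterByExpr, TMM scaling, robust quasi-likelihood F test, 1 coefficient per group, 13849 genes and 4 residual degrees of freedom. The fit was also run on counts simulated with its own estimates of the spread. Such a run cannot show whether the groups share a spread, and nothing is drawn from it. SE is the log2 fold change over the square root of F. Contrasts used by the rule were not tested. Members, lists and comparisons were chosen with earlier results of these data known. Planned gene lists, markers and promoter motifs need symbols, and 0 of the 21867 Ensembl IDs matched the RefSeq gene table (GRCr8). By the rule for named genes, at most 2 IDs without a symbol were to be printed, those with the largest smaller distance. The 2 members called higher in MF were added after their values were seen. Alternatives were DESeq2 1.42.0, RLE scaling, no filter, the matrix, only the groups compared, a replicate block, other thresholds, log2 CPM (prior count 2), 1 density alone and leaving out each library. Counting members kept by each alternative of the rule, the treated libraries without 2 µA replicate 2, length factors and IDs of the matrix alone were chosen after seeing the data.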

Additional observations from a re-analysis of the deposited data

How the results depend on the processing

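The cause of these changes was not tested. The number of genes that met the rule was 203 with a distance of 0.6, 63 with 1.0, and 182 with log2 CPM of the estimated counts, which held all 120 members. It was 160 with log2 CPM of the matrix, 100 of them members, and 123 or 115 with a mean count of 20 or 100. Leaving out 1 library gave 99 (without CF replicate 2) to 168 genes (without CF replicate 1), with 97 to 119 of the members, and 159 without 2 µA replicate 2. The median difference of the treated cells from MF was -1.11, and -1.39 and -1.30 with log2 CPM of the estimated counts and of the matrix. From CF it was -1.46, and -1.68 and -1.58. Leaving out 1 library gave -1.21 to -1.06 from MF and -1.73 to -1.34 from CF.

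Members called lower in MF numbered 28, from 26 to 32 under the other tools, scalings, filters, tables and fits, and 3 to 32 on leaving out 1 library, with 3 when either one of the MF libraries was left out. Members called higher in MF numbered 2, 4 by the adjusted p alone, 1 with only the groups compared, and 0 to 10 on leaving out 1 library. That count was 0 without MF replicate 1, 1 without MF replicate 2 or either 2 µA library, and 10 without CF replicate 2. With the replicate block it was 1, with 28 lower. Whether the replicate numbers pair the samples is not settled here. Correlations of the replicate differences between groups ran from -0.30 to 0.36, the highest between 1 µA and 2 µA. The share of all genes called between MF and CF also moved with the setting, most on leaving out 1 library. A change in the number of members called is therefore not read as one of the members alone. With 2 libraries per group, that share was 2.81% to 4.47% for genes lower in MF and 5.53% to 7.33% for genes higher. In the matrix, the members called lower were 26 of 108 tested. Between 2 µA and 1 µA, 0 members were called under every alternative that kept 2 libraries per group. The number of members at an unadjusted p below 0.05 varied with the library left out, and no share over all genes was counted beside it. With 2 libraries per group, the fit rests on a spread that the groups share.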

Other observations

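The matrix of whole-number counts lists 1463 IDs that the estimated counts do not, 1128 of them with a mean count of at least 50. On the log2 CPM scale, 14 of these met the rule for genes lowest in the treated cells. Their distance from the treated mean was 0.90 to 4.08 for CF, with a median of 2.04, and 1.09 to 3.37 for MF, with a median of 1.55. They were chosen by these values, so no test was made, and they are not among the 120 members.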
